A study of Mus musculus with 2 samples.

Results

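Regulatory T cells of 4T1 tumours were taken from the counts by a gate on UMIs (unique molecular identifiers, 1 per counted transcript). A barcode was kept if it held 200 genes or more and if mitochondrial genes gave no more than 10% of its UMIs. A kept barcode was a member with at least 1 UMI of Cd3d, Cd3e or Cd3g, 0 UMIs of Cd8a and Cd8b1, and either at least 1 UMI of Foxp3 or at least 3 summed UMIs of Il2ra, Ikzf2, Tnfrsf4, Ctla4, Il1rl1 and Izumo1r. This gave 76 members of 1754 kept shPml barcodes and 88 of 856 kept shCTRL barcodes, 164 of 2610 in all. The 7 genes Foxp3, Il2ra, Ikzf2, Tnfrsf4, Ctla4, Il1rl1 and Izumo1r are the values the members were chosen by, so their levels are given as a description. The remaining CD3 barcodes without CD8 UMIs, 367 in the shPml and 344 in the shCTRL library, serve as the comparison and are called other CD3 barcodes.

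The tumours came from 4T1 cells, a mouse mammary carcinoma line, which expressed either shPml, a hairpin that targets Pml, or the control shCTRL. The host mice were BALB/c, 6 to 8 weeks of age, and received the cells in the mammary fat pad. After 14 days, tumours of similar size gave CD45-positive leukocytes, which do not carry the hairpin, and 1 droplet (10x) library was made per group. The number and sex of the mice behind each library are not given in the sources used here, so each library is 1 sample and no difference has a replicate check.

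Regulatory T cells are CD4 T cells that hold other immune cells in check, and the transcription factor FOXP3 defines the lineage. They bind interleukin 2 through CD25 (Il2ra), remove costimulatory ligands from antigen-presenting cells with CTLA-4, and release inhibitory cytokines. In tumours many carry activation receptors of the TNF receptor family, such as OX40 (Tnfrsf4), GITR (Tnfrsf18) and 4-1BB (Tnfrsf9), whereas resting ones keep the lymph node homing gene Ccr7.

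Some of the same 10x cell barcodes were found in both libraries. Of the members, 15 of 76 shPml (19.7%) and 21 of 88 shCTRL (23.9%) had a barcode that the other library also held. These 21 held 45.8% of the UMIs of the shCTRL members. The shared barcodes were 27 different sequences, and 9 of them were members in both libraries. In 20 of the 27 the shCTRL copy had 10 to 20 times as many UMIs, and in 7 the shPml copy had more. In the median shared barcode 99.2% of the genes of the shallower copy were also found in the deeper copy, with a range of 49.6 to 99.8%. The barcodes printed here show the kinds of pair, in lower case as deposited letters without the library suffix. The first has the deep copy in shCTRL and is a member in both, the second is a member in shPml only, the third is a member in both, the fourth has the deep copy in shPml, and the last has the lower overlap seen in pairs of small UMI ratio.
pair 1: tcaggtatcgataacc
pair 2: gatagaaagtgccgaa
pair 3: ggaggtacaagcgagt
pair 4: gatgaggtccagctct
pair 5: actattccaggctacc

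Pair 1 had 1625 UMIs in its shPml copy and 21334 in its shCTRL copy. Pair 2 had 4933 and 66273 UMIs, and its shCTRL copy was not a member because it held 2 CD8 UMIs. Pair 3 had 733 and 9848 UMIs. Pair 4 had 40074 and 993 UMIs, and its shPml copy alone held 14.5% of the UMIs of all shPml members. Pair 5 had 1708 and 580 UMIs, with 57.4% of the genes of the shallower copy in the deeper one. Whether such a pair is 1 cell counted in both libraries or 2 cells was not tested. Results that rest on them are given also without all shared barcodes (61 and 67 members) or with each shared barcode kept only where it had more UMIs (67 and 86 members).

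The libraries also differed in depth. Kept barcodes had a median of 1300 UMIs in shPml and 4040 in shCTRL, and 22.7% and 61.9% of all barcodes were over the mitochondrial limit. The shPml members had a median of 2344 UMIs (516 to 40074) and 276675 UMIs in sum. The shCTRL members had a median of 4699 UMIs (580 to 27997) and 533313 in sum. Levels are therefore given per 1000000 UMIs of the cells summed (CPM). Ratios are log2 of shPml over shCTRL with an exact 95% interval, and all intervals cover counting error only, not the spread between mice or cells.

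The defining markers were present, and their strength differed along the gate. Foxp3, on chromosome X at 7573644 to 7595245 on the plus strand (mm10), gave 46 UMIs in 17 of 76 shPml members and 89 UMIs in 36 of 88 shCTRL members. Its level was 166 CPM in shPml and 167 CPM in shCTRL members. Foxp3 was at 0 UMIs in the 367 and 344 other CD3 barcodes by the construction of the gate. In the CD3 barcodes with CD8 UMIs it was found in 2 of 714 (0.28%) and 4 of 261 (1.53%), which sets the level outside the gate. After every barcode was thinned to 500 UMIs, Foxp3 was detected in 6.58% of shPml members (5 of 76) and 7.95% of shCTRL members (7 of 88). Without shared barcodes the thinned shares were 3.28% (2 of 61) and 14.9% (10 of 67), with intervals that overlap. This set was thinned in a separate random draw. Its distance from the shares over all members therefore also holds the spread between draws, which was not measured. Only 62 shPml and 85 shCTRL members held at least 1000 UMIs. Thinned to 1000 UMIs, these had shares of 8.06% and 17.6%, and 15.1% and 22.7% without shared barcodes.

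The levels of the remaining rule genes are in part set by the gate. Ikzf2, the gene of the transcription factor Helios (chromosome 1, 69531214 to 69687245, minus strand), stood at 633 CPM in shPml and 516 CPM in shCTRL members. Tnfrsf4 (chromosome 4, 156013843 to 156016612, plus strand) stood at 698 and 804 CPM, and Ctla4 (chromosome 1, 60887000 to 60915832, plus strand) at 824 and 804 CPM. Il2ra (chromosome 2, 11642807 to 11693193, plus strand) stood at 304 and 231 CPM. Izumo1r, which encodes the folate receptor family protein FR4 (chromosome 9, 14885814 to 14903949, minus strand), stood at 430 and 454 CPM. Il1rl1, the gene of the interleukin 33 receptor ST2 (chromosome 1, 40429570 to 40465415, plus strand), was the scarcest in cells, with 13 UMIs in 6 shPml and 30 UMIs in 10 shCTRL members. Without shared barcodes Ikzf2 stood at 786 and 405 CPM, a log2 ratio of 0.96 against 0.29 over all members. Tnfrsf4 then stood at 641 and 426 CPM, a ratio of 0.59 against -0.21 over all members.

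Most members in the shPml library entered without Foxp3. There, 59 of 76 entered by the 6-gene sum alone, against 52 of 88 in the shCTRL library. The median sum was 5 UMIs in shPml and 7.5 in shCTRL members, and sums of 10 or more were found in 24 and 41 members. Of the 7 rule genes, 14 shPml and 8 shCTRL members had UMIs of 1 only.

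**Figure D1:**
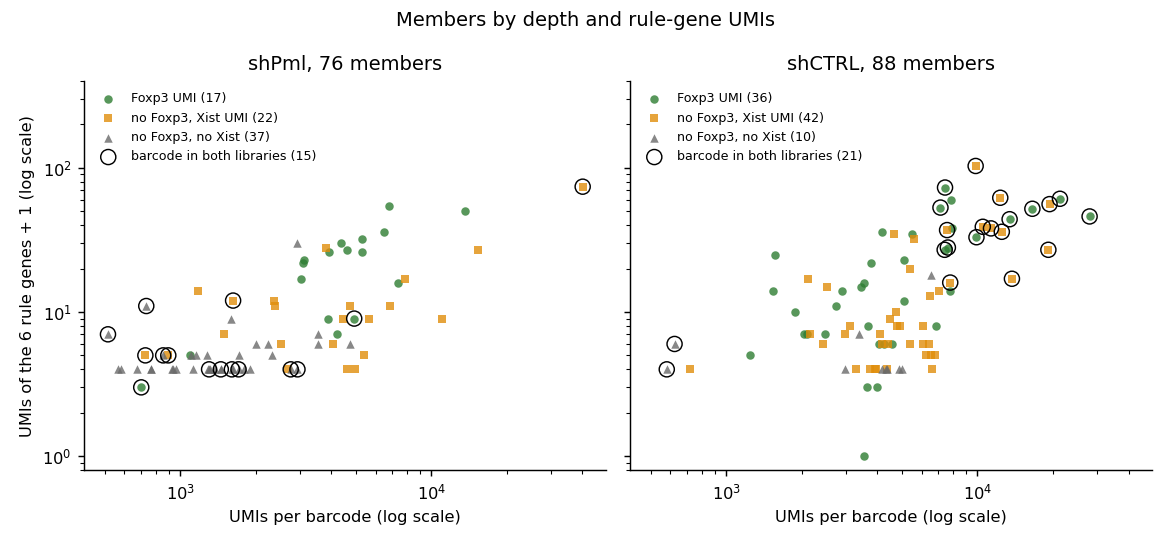
Each point is 1 member, with its UMIs (log scale) against its summed UMIs of the 6 rule genes plus 1 (log scale), for the 76 shPml members (left) and the 88 shCTRL members (right). Colours and shapes give Foxp3 and Xist UMIs, and open rings mark the 15 and 21 members whose barcode occurs in both libraries. Many shPml members without Foxp3 and Xist lie at the sum of 3 with few UMIs, and most ringed shCTRL members lie at high UMIs.

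At the limit of the gate the libraries differed in the barcodes they held. Just inside, with a sum of 3 and no Foxp3, were 25 shPml barcodes, of which 2 had Cd4, and 14 shCTRL barcodes, of which 9 had Cd4. Just outside, with a sum of 2, were 45 shPml barcodes with Cd4 in 1 and 29 shCTRL barcodes with Cd4 in 15. Genes of cytotoxic T cells (Nkg7, granzymes, Ccl5, Xcl1 and others, 11 genes without Cd8a and Cd8b1) summed to 6034 CPM just inside and 7263 CPM just outside in shPml. They summed to 189 CPM just inside and 699 CPM just outside in shCTRL. The shPml barcodes on both sides of the limit thus had cytotoxic genes at a level near that of the other CD3 barcodes of the library (6739 CPM). The 45 just outside are themselves part of the other CD3 barcodes, and 1 of them held 40.1% of their UMIs. For the mitochondrial limit, 4 shPml and 0 shCTRL members had 9 to 10% mitochondrial UMIs, and 1 and 0 barcodes with 10 to 11% met the rest of the rule.

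Split by Foxp3 and by Xist, the RNA that coats an inactive X chromosome, the shPml members fell into unlike subsets. Xist was found in 37 of 76 shPml members (48.7%) and 73 of 88 shCTRL members (83.0%). After thinning to 500 UMIs the shares were 34.2% and 30.7%. Thinned to 1000 UMIs they were 40.3% and 44.7% of the 62 and 85 members that held as many. Unthinned, the shares with Foxp3 were 88.2% and 86.1%, and among those that entered by the sum alone 37.3% and 80.8%. The 37 shPml members without Foxp3 and Xist had a median of 1377 UMIs, against 4365 UMIs in the 17 with Foxp3. All 8 shPml members with a UMI of a Y-linked gene had entered by the sum alone, and no member held both Xist and Y-linked UMIs. Y-linked UMIs stood at 139 CPM in the 39 shPml members without Xist and at 0 in the 37 with Xist. In CD3 barcodes with CD8 UMIs, Y-linked genes were found in 22.3% of shPml and 4.60% of shCTRL barcodes. Xist was found in 3.36% and 57.1% of them. Lower depth also leaves Xist undetected in some barcodes. The parts of depth and of sex in this split were not tested, so it is a description only.

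The 37 shPml members without Foxp3 and Xist differed from the other shPml members in cytotoxic genes. Their Ikzf2 level of 283 CPM was near that of the 22 members that entered by the sum alone with Xist (304 CPM) and below that of the 17 with Foxp3 (1431 CPM). Cd4 stood at 183 CPM in 7 cells, against 208 CPM with Foxp3, and Izumo1r at 383 CPM against 378 CPM in the 22. Ctla4 stood at 1314 CPM and Tnfrsf4 at 682 CPM, against 1357 and 709 CPM with Foxp3, and Il1rl1 had 0 UMIs (up to 61.4 CPM by the interval). Ccl5, a chemokine of cytotoxic and memory T cells, stood at 2462 CPM there, against 147 CPM in the 17 shPml members with Foxp3. Nkg7, a granule protein gene of cytotoxic cells, stood at 948 against 36.7 CPM, and Xcl1, the lymphotactin gene, at 865 CPM against 0 UMIs. The cytotoxic genes together gave 5757 CPM in these 37 members and 929 CPM in the members with Foxp3. These cytotoxic levels go against the label regulatory T cell for the 37. The members with Foxp3 were chosen by that gene, so its presence is no separate check of the label. The 10 shCTRL members without Foxp3 and Xist had the cytotoxic genes at 272 CPM. The 42 shCTRL members that entered by the sum alone with Xist had them at 1013 CPM, with Nkg7 at 381 CPM and Lag3 at 470 CPM. Ikzf2 stood at 203 CPM in these 42 and at 54.3 CPM in the 10, against 964 CPM in the 36 shCTRL members with Foxp3. Izumo1r went the other way, at 536 and 462 CPM against 354 CPM. Both are rule genes, and only the members without Foxp3 had to reach the sum, so these levels are no check of the label. The label was not settled for shCTRL members without Foxp3 either.

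**Figure D2:**
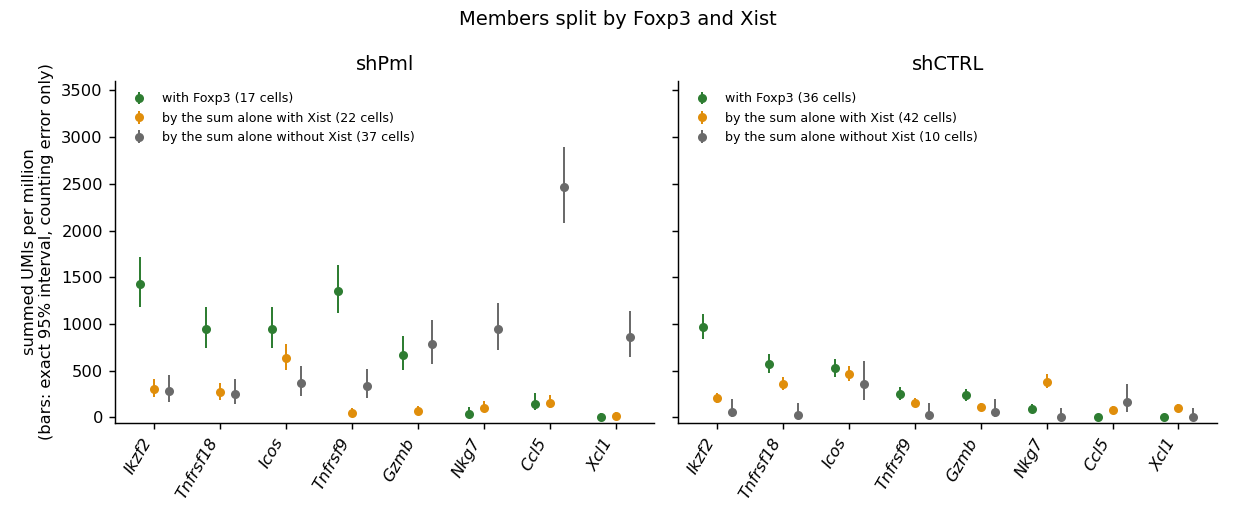
Summed UMIs per 1000000 UMIs for 8 genes in the members split by Foxp3 and, without Foxp3, by Xist, for shPml (left) and shCTRL (right). Points are levels and bars exact 95% intervals for counting error only. In shPml, Ikzf2 and Tnfrsf18 are highest in the 17 members with Foxp3, and Ccl5, Nkg7 and Xcl1 in the 37 members without Foxp3 and Xist.

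Members were a smaller share of the kept shPml barcodes. They made up 4.33% of kept barcodes in shPml (3.43 to 5.39%, Clopper-Pearson) and 10.3% in shCTRL (8.33 to 12.5%), a ratio of 0.421 (0.306 to 0.579). Among CD3 barcodes without CD8 UMIs they made up 17.2% (76 of 443) and 20.4% (88 of 432), a ratio of 0.842 whose interval held 1 (0.611 to 1.16). The interval of the first ratio left out 1 and that of the second held it. CD3 barcodes with CD8 UMIs, which stand only in the first denominator, numbered 714 in shPml and 261 in shCTRL.

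How strictly the gate was set also moved the share. With Foxp3 required, 17 shPml and 36 shCTRL members remained, 0.969% and 4.21% of kept barcodes (ratio 0.230, 0.121 to 0.421). Among CD3 barcodes without CD8 UMIs the ratio was then 0.460 (0.243 to 0.841). Among barcodes with at least 1000 UMIs the ratio over CD3 barcodes without CD8 UMIs was 1.21, with an interval that held 1 (0.855 to 1.69). With shared barcodes kept only where deeper it was 0.705 (0.505 to 0.982). With the rule applied after thinning every barcode to 500 UMIs the ratios were 0.432 over kept barcodes and 0.613 over CD3 barcodes without CD8 UMIs (0.334 to 1.12). At a mitochondrial limit of 5% they were 0.372 and 0.850. The part of the sort in these shares was not tested.

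**Figure D3:**
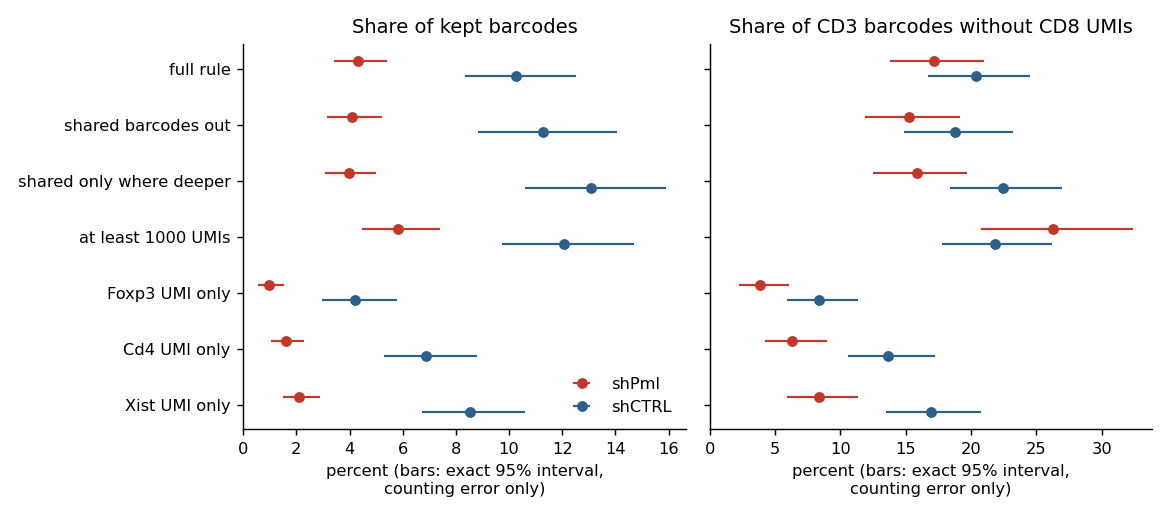
Share of members under 7 settings of the gate, as a percentage of kept barcodes (left) and of CD3 barcodes without CD8 UMIs (right). Points are shares and bars exact 95% intervals for counting error only. The shPml share of kept barcodes lies below the shCTRL share under each of the 7 settings drawn, and the share of CD3 barcodes without CD8 UMIs lies above it at a minimum of 1000 UMIs.

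The members were next set against the other CD3 barcodes. Of 8451 genes with at least 20 UMIs, 3.55% were at least 2-fold higher in members in both libraries (300 genes) and 2.35% at least 2-fold lower (199 genes). In the regulatory T cell identity list, 13 of 17 measured genes were at least 2-fold higher in both, but 6 of the 13 are rule genes, which chose the cells. Of the 11 measured identity genes outside the rule, 7 were 2-fold higher in both, with medians of 1.65 in shPml and 2.67 in shCTRL against 0.20 and 0.17 over all genes. With TMM scaling, which sets the typical gene near 0, the counts over all genes were 170 higher and 295 lower. Since the gate chose cells by linked genes, these differences describe the members and test nothing, and the shPml sums include the 37 members with cytotoxic genes.

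The genes described next are outside the rule. Tnfrsf18, the GITR gene, had log2 ratios of members over other CD3 barcodes of 2.74 in shPml and 3.02 in shCTRL. Icos, a costimulatory receptor, had 2.51 and 3.35. Ikzf4, which encodes the FOXP3 partner Eos, had 4.48 and 2.67, and Lrrc32, whose product GARP displays latent TGF-beta, had 2.53 and 5.19. The identity genes that were not 2-fold higher in both were Il2rb (0.38 and 2.42), Nrp1 (0.65 and 3.23), Entpd1 (-0.64 and 0.01) and Cd4 (2.69 and 0.62).

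Factors of tissue and effector T cells were higher in members as well. The transcription factor genes Rora and Maf had 2.70 and 3.96, and 2.58 and 3.58. Cish, a feedback inhibitor induced by interleukin 2 through STAT5, had 2.28 and 2.07, and Tnfsf8, the CD30 ligand gene, 3.96 and 2.98. Lta, the lymphotoxin gene, had 3.94 and 2.79 but came from 4 shPml and 7 shCTRL cells. Penk, the proenkephalin gene, had 6.44 and 5.87, and 81 of its 83 shPml UMIs lay in 1 cell. In the effector and tissue list 12 of 21 measured genes were at least 2-fold higher in members in both libraries, and in the suppressive list 5 of 16.

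Of the 12 genes named by rule as lower in members, 8 are known from neutrophils and other myeloid cells: S100a8, S100a9, Retnlg, Lyz2, G0s2, Il1b, Ccl3 and Cxcl2. The neutrophil list summed to 30772 CPM in shPml and 3114 CPM in shCTRL other CD3 barcodes, and to 177 and 22.5 CPM in members. The other CD3 barcodes thus held neutrophil transcripts, more so in shPml, and the part of this in the ratios of members over other CD3 barcodes was not tested.

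Within the members, most marker lists of other cell types were low, but cytotoxic genes and, in shPml, neutrophil genes were not. The neutrophil list was found in 33 shPml members at 177 CPM and in 11 shCTRL members at 22.5 CPM. The dendritic cell list was found in 23 members of each library, at 94.0 CPM in shPml and 71.3 CPM in shCTRL. Collagen and decorin genes of fibroblasts were at 0 in both. The monocyte and macrophage list summed to 14.5 CPM in shPml and 9.38 CPM in shCTRL members, with Csf1r, Cd68 and the C1q genes at 0. The NK cell list summed to 10.8 and 30.0 CPM, with Klre1, Klra7 and Klra8 at 0, and the B cell list to 123 and 184 CPM, with Ms4a1 and Pax5 at 0. The cytotoxic list, by contrast, summed to 1753 CPM in shPml and 677 CPM in shCTRL members (1889 and 678 CPM without shared barcodes). Of its 13 genes, Cd8a and Cd8b1 were at 0 by the gate, with Eomes also at 0 in shPml and Gzma and Gzmk in shCTRL. The part of cells with these transcripts in the differences between the libraries was not tested.

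Between the libraries, 5055 genes had at least 20 UMIs over the members of both. Of these, 237 (4.69%) were at least 2-fold higher in shPml members and 280 (5.54%) at least 2-fold lower, with a median of 0.01. Without shared barcodes 6.64% of 3478 genes were at least 2-fold higher and 6.58% lower. With shared barcodes only where deeper, 5.2% and 5.92% of 4984 genes were, and among members with Foxp3 8.12% and 8.87% of 2413 genes. The list counts given below are to be read against 4.69% and 5.54% over all members. List counts among members with Foxp3 are to be read against 8.12% and 8.87%. Of the genes past 2-fold over all members, 83 higher and 112 lower were also past 2-fold in the same direction without shared barcodes. In 24 of the 237 genes and 12 of the 280, more than 50% of the UMIs of the library with the higher level came from 1 cell. TMM scaling gave 195 higher and 327 lower, with all genes shifted by -0.08. The same contrast in the other CD3 barcodes is given beside the results as the difference found outside the gate. These barcodes were an unlike mix of cells between the libraries. Cd4 was found in 4.36% of them in shPml and 52.3% in shCTRL, and cytotoxic genes in 81.2% and 38.1%. Their median depth was 959 and 4128.5 UMIs. The part of this mix in their ratios was not tested.

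Receptors of the TNF receptor family and checkpoint receptors were higher in shPml members for some genes and not for others. Tnfrsf9, whose product 4-1BB is induced on activated regulatory T cells, stood at 495 CPM in shPml (137 UMIs in 29 cells, 42 of them in 1 cell) and 186 CPM in shCTRL members (99 UMIs in 21 cells). The log2 ratio was 1.42 (1.03 to 1.80), 1.998 without shared barcodes and 2.45 (1.98 to 2.94) among members with Foxp3. Of the members with Foxp3, 14 of 17 in shPml and 11 of 36 in shCTRL held a Tnfrsf9 UMI, at similar median depth (4365 and 4212.5 UMIs). The other CD3 barcodes had a ratio of 3.77 for the same gene, with 61 of their 147 shPml UMIs in 1 cell. After thinning to 500 UMIs, 15.8% of shPml (8.43 to 25.96%) and 7.95% of shCTRL members (3.26 to 15.7%) held Tnfrsf9, against 38.2% and 23.9% unthinned.

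Pdcd1, the PD-1 gene, stood at 101 CPM (28 UMIs in 14 cells) and 35.6 CPM (19 UMIs in 13 cells), log2 1.51 (0.61 to 2.43), with 2.17 among members with Foxp3 and 3.59 in other CD3 barcodes. Icos stood at 669 and 482 CPM (log2 0.47, 0.19 to 0.75), with 46 of its 185 shPml UMIs in 1 cell, and at 0.84 (0.41 to 1.26) among members with Foxp3. Tnfrsf18 stood at 463 and 424 CPM, with an interval that held 0 (log2 0.13, -0.20 to 0.45). Without shared barcodes its ratio was 0.83 and among members with Foxp3 0.72 (0.30 to 1.14). For these 4 receptor genes the ratio among members with Foxp3 was above that over all members. In the TNF receptor and NF-kB list, 2 of 22 measured genes were at least 2-fold higher and 0 lower, with a median of 0.02. Its member Nfkbia, the NF-kB inhibitor gene, was lower in shPml members at 828 against 1481 CPM (log2 -0.84, -1.06 to -0.63), and Relb, a subunit of the noncanonical pathway, was higher (log2 0.82, 0.11 to 1.54).

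Lineage factors were at like or higher levels in shPml members. Ikzf4 stood at 116 and 63.8 CPM (log2 0.86, 0.12 to 1.60), found in 15 cells of each library, with 1.72 (0.82 to 2.63) among members with Foxp3 and -0.96 in other CD3 barcodes. Ikzf2, a rule gene, had log2 0.57 (0.23 to 0.90) among members with Foxp3, where the gate had not used it. Rora stood at 459 and 279 CPM (log2 0.72, 0.36 to 1.07). Maf was alike over all members (log2 -0.04, -0.51 to 0.42) but higher among those with Foxp3 (log2 1.80, 1.08 to 2.53). Over the identity list 0 of 16 measured genes were at least 2-fold higher and 2 lower, with a median of 0.01 over all members and 0.51 among members with Foxp3. Over all genes the median among members with Foxp3 was -0.04.

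The 2 identity genes past 2-fold lower in shPml were low in counts. Gpr83, a receptor gene of regulatory T cells, had 6 UMIs in 3 shPml cells and 31 UMIs in 14 shCTRL cells (log2 -1.42, -2.97 to -0.14). Itgae, the CD103 integrin gene, had 7 UMIs in 5 cells and 37 UMIs in 11 cells (log2 -1.46, -2.87 to -0.27), and its ratio was -0.68 without shared barcodes. Lrrc32 had 11 and 42 UMIs (log2 -0.99, with a lower bound of -2.09 and an upper bound just under 0). Cd4 stood at 257 CPM in shPml and 364 CPM in shCTRL members (log2 -0.50, -0.92 to -0.10), but at 208 and 203 CPM among members with Foxp3, and at 0.12 without shared barcodes.

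Suppressive effector genes lay on both sides of 0, 9 of 13 measured above it (all genes: 50.3%). Of the 13, 3 were at least 2-fold higher in shPml (Gzmb, Pdcd1 and Ebi3) and 2 lower (Lag3 and Cd83, the latter named after its value was seen), with a median of 0.19. Without shared barcodes 3 of 11 were higher and 1 lower, and the summed list went from log2 0.14 to 0.60. Among members with Foxp3 the median was 0.55. Gzmb, the granzyme B gene that regulatory T cells share with cytotoxic cells, stood at 401 CPM (111 UMIs in 23 cells, 35 of them in 1 cell) and 159 CPM (85 UMIs in 11 cells), log2 1.33 (0.91 to 1.76). Of the 111 UMIs, 47 lay in the 37 shPml members without Foxp3 and Xist. Among members with Foxp3 it stood at 673 CPM in 6 of 17 cells and 234 CPM in 6 of 36 cells (log2 1.52, 0.95 to 2.09). Few cells carried this: of the 55 shPml UMIs, 35 lay in 1 cell and 16 in another. Of the 53 shCTRL UMIs, single cells held 20, 18 and 11. The other CD3 barcodes had a ratio of 3.49. Ebi3, a subunit of interleukin 35, had 20 and 12 UMIs in 5 cells of each library (log2 1.68, 0.58 to 2.85).

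Lag3, an inhibitory receptor gene, was far lower in shPml members at 47.0 against 253 CPM (log2 -2.43, -3.38 to -1.61), and this rested on the shared barcodes. Without them its ratio was 0.07, with an interval of -1.59 to 1.67. With each shared barcode kept only where deeper, the ratio of Lag3 was -2.60. Il10, which encodes an inhibitory cytokine, had 3 UMIs in 1 shPml cell and 9 UMIs in 2 shCTRL cells, too few to tell a difference (log2 -0.64, -3.16 to 1.36). Tgfb1 stood at 210 and 263 CPM (log2 -0.32, -0.79 to 0.13). Ccr8, a chemokine receptor of tumour regulatory T cells, had 4 UMIs in 4 cells and 16 UMIs in 11 cells (log2 -1.05, -3.09 to 0.58), and Klrg1, a receptor of terminally differentiated cells, 7 and 16 UMIs in 5 cells of each (log2 -0.25, -1.77 to 1.12). None of the last 4 genes had an interval that left out 0.

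**Figure D4:**
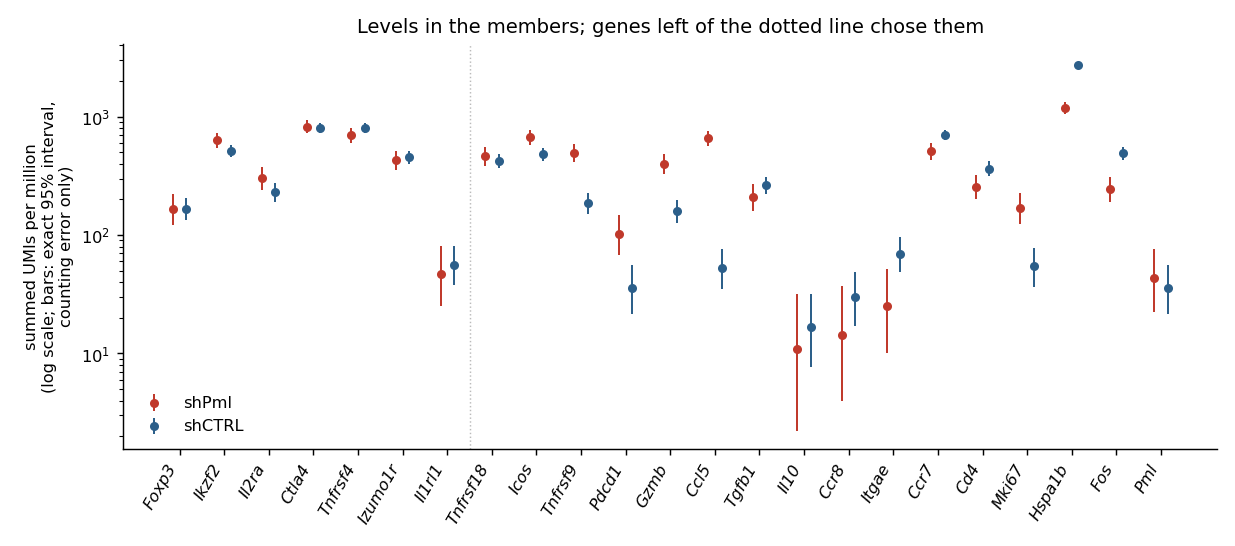
Levels of 23 genes in the members as summed UMIs per 1000000 UMIs on a log scale, shPml in red and shCTRL in blue. Points are levels and bars exact 95% intervals for counting error only, and the 7 genes left of the dotted line chose the members. Ccl5, Tnfrsf9, Pdcd1, Gzmb and Mki67 are higher in shPml, Hspa1b, Fos and Ccr7 are lower, and the intervals of Foxp3, Tgfb1, Il10 and Pml overlap.

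Genes of the resting and central programme were in part lower in shPml members. Ccr7, the receptor that guides T cells to lymph nodes, stood at 510 CPM (141 UMIs in 38 cells) and 699 CPM (373 UMIs in 51 cells), log2 -0.46 (-0.75 to -0.17). Klf2, a transcription factor gene of resting and recirculating T cells, stood at 1392 and 1920 CPM (log2 -0.46, -0.64 to -0.29). Foxo1, which acts upstream of Klf2, stood at 90.4 and 165 CPM (log2 -0.87, -1.57 to -0.21). Igfbp4, which encodes a binding protein of insulin-like growth factors, had 7 and 56 UMIs (log2 -2.05, -3.43 to -0.92).

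The resting list as a whole was less uniform than these genes. Of 15 measured, 0 were at least 2-fold higher and 1 lower, 9 lay below 0 and the median was -0.37 (-0.72 without shared barcodes, -1.20 in other CD3 barcodes). S1pr1, which lets T cells leave tissue, and the survival gene Bcl2 lay above 0 (log2 0.66, 0.19 to 1.12, and 0.54, 0.08 to 1.002). Among members with Foxp3, Ccr7 had the ratio -0.44 with an interval that held 0.

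Chemokine genes of cytotoxic cells, Ly6a, Plac8 and Ecm1 were higher in shPml members. Ccl5 stood at 654 CPM (181 UMIs in 20 cells) and 52.5 CPM (28 UMIs in 8 cells), log2 3.64 (3.06 to 4.27). In other CD3 barcodes it stood at 3895 and 220 CPM (log2 4.15). Of its 181 shPml UMIs, 148 lay in members without Foxp3 and Xist, and over the members with an Xist UMI the ratio was 1.76. Among members with Foxp3, 4 of 17 shPml cells held 12 Ccl5 UMIs and 36 shCTRL cells held 0, a log2 ratio of 3.47 against the floor of 3 counts over the class.

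Xcl1 stood at 195 and 52.5 CPM over all members (log2 1.89, 1.21 to 2.61), and at -2.64 over the members with an Xist UMI. Of its 54 shPml UMIs, 52 lay in the members without Foxp3 and Xist. Ly6a, the Sca-1 gene, was different in this respect: it stood at 173 and 56.3 CPM (log2 1.62, 0.94 to 2.33), with 1.81 over the members with an Xist UMI. Among members with Foxp3 its ratio was 1.98 (1.25 to 2.73). It came there from 40 UMIs in 6 of 17 shPml cells and 28 UMIs in 11 of 36 shCTRL cells. Ecm1, a secreted matrix protein gene, had 35 and 21 UMIs (log2 1.68, 0.86 to 2.54), with 15 shPml UMIs in 1 cell and 1.58 among members with Foxp3. Plac8 had 53 UMIs in 14 cells and 28 UMIs in 4 cells (log2 1.87, 1.18 to 2.58), and its ratio turned to -2.10 over the members with a Cd4 UMI.

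Proliferation genes were higher in shPml members, from few cells. Of 21 measured, 9 were at least 2-fold higher and 0 lower, and 20 lay above 0 (all genes: 50.3%), 13 with their whole interval, with a median of 0.77. Mki67, the marker of cycling cells, stood at 170 CPM (47 UMIs in 13 cells, 22 of them in 1 cell) and 54.4 CPM (29 UMIs in 7 cells), log2 1.64 (0.95 to 2.36). Stmn1, which destabilises microtubules in mitosis, stood at 423 and 135 CPM (log2 1.65, 1.21 to 2.09), and the mitotic ubiquitin enzyme gene Ube2c had 34 UMIs in 11 cells and 9 UMIs in 4 cells (log2 2.86, 1.77 to 4.11). The histone gene Hist1h2ap had a ratio of 2.24, but 166 of its 245 shPml UMIs and 85 of its 100 shCTRL UMIs lay in 1 cell each.

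These proliferation values leaned on which barcodes were taken. Without shared barcodes the list's median was 1.30 and Mki67 reached 3.89. That Mki67 ratio came from 8 of 61 shPml and only 3 of 67 shCTRL members, so its size is uncertain. The shCTRL members with most UMIs of the list (520, 329 and 136) had shared barcodes and were left out there. In shPml, members with 347 and 105 UMIs of the list were left out as well. Among members with Foxp3 the median was -0.24, with 3 of 16 measured genes at least 2-fold higher and 1 lower (all genes: 8.12% and 8.87%). Mki67 stood there at 293 CPM in 3 of 17 shPml cells and 115 CPM in 4 of 36 shCTRL cells. Of the 1876 UMIs of the list in all shPml members, 466 lay in 1 member with Foxp3. In shCTRL 520 of 1870 did. In other CD3 barcodes the median was 2.67, so the gap between the libraries was wider outside the gate (summed list: log2 0.95 in members, 0.86 to 1.04, and 1.69 in other CD3 barcodes). Glycolysis genes differed less: 1 of 19 was at least 2-fold higher, 0 lower, and the median was 0.11. Pgk1 and Tpi1, enzymes of glycolysis, stood at log2 0.97 (0.61 to 1.32) and 0.87 (0.38 to 1.35), and the lactate dehydrogenase gene Ldha at 0.36 (0.10 to 0.61).

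Immediate early and inducible heat shock genes, which tissue digestion can also induce, were lower in shPml members. All 16 measured immediate early genes lay below 0 (all genes: 49.7%), 7 with their whole interval, with 1 at least 2-fold lower and a median of -0.57. Fos stood at 246 CPM (68 UMIs in 23 cells) and 491 CPM (262 UMIs in 61 cells), log2 -0.999 (-1.41 to -0.61), Jun at log2 -0.81 (-1.10 to -0.52) and Junb at -0.69 (-0.84 to -0.54). The other CD3 barcodes had lower ratios for Fos and Jun (-2.16 and -2.49). The list's median was -0.67 without shared barcodes and -0.40 among members with Foxp3.

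Hspa1b, an inducible HSP70 gene, stood at 1182 CPM (32 of 76 cells) and 2724 CPM (74 of 88 cells), log2 -1.20 (-1.38 to -1.03). Hspa1a, its neighbouring paralogue, had -1.12 (-1.29 to -0.95), and reads of such near-identical copies may be split between them. Among members with Foxp3 the ratio of Hspa1b was -0.44 and that of Hspa1a turned to 0.45 (0.16 to 0.73). After thinning to 500 UMIs, Hspa1b was found in 23.7% of shPml and 46.6% of shCTRL members, against 42.1% and 84.1% unthinned. In the heat shock list as a whole 0 of 14 measured genes were at least 2-fold higher and 2 lower, and the median was -0.02.

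T cell receptor and stress response genes included some that were lower too. Nr4a1, a gene switched on by T cell receptor signals, stood at 145 CPM (40 UMIs in 17 cells) and 351 CPM (187 UMIs in 49 cells), log2 -1.28 (-1.81 to -0.78), with -0.63 (-1.46 to 0.12) among members with Foxp3. Ppp1r15a, a gene of the integrated stress response, stood at 155 and 383 CPM (log2 -1.30, -1.81 to -0.82). In the T cell receptor signal list 2 of 20 measured genes were at least 2-fold higher and 2 lower, with a median of -0.05. Timp2, a protease inhibitor gene, had 6 UMIs in 5 cells and 69 UMIs in 31 cells (log2 -2.58, -4.07 to -1.38), with -1.34 (-3.73 to 0.40) among members with Foxp3.

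Type I interferon response genes were a little lower in shPml members. Of 24 measured, 22 lay below 0 (all genes: 49.7%), and 4 had an interval below 0. None was at least 2-fold higher and 1 was lower, and the median was -0.45 over all members, -0.45 without shared barcodes, -0.34 among members with Foxp3 and -0.41 in other CD3 barcodes. Slfn1 had 6 UMIs in 5 cells and 43 UMIs in 24 cells (log2 -1.89, -3.42 to -0.66). Ifi27l2a stood at 1373 and 2548 CPM (log2 -0.89, -1.06 to -0.73), but at -0.20 without shared barcodes and 0.09 among members with Foxp3. Isg15, a ubiquitin-like modifier, stood at 134 and 216 CPM (log2 -0.69, -1.26 to -0.14), whereas the other CD3 barcodes had 1.07.

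Some large ratios rested on 1 cell of the shCTRL library. Of the 183 shCTRL UMIs of the chemokine gene Ccl1, 152 lay in 1 cell, and Csf2, the GM-CSF gene, had 55 of its 56 shCTRL UMIs in 1 cell. Lgals7 had 48 of 62 in 1 cell. Without the top cell the ratio of Csf2 turned from -2.86 to 2.53, so these 3 ratios describe single cells.

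Pml itself (chromosome 9, 58218076 to 58249786, minus strand), was alike in the members of both libraries within counting error. It had 12 UMIs in 10 shPml cells and 19 UMIs in 15 shCTRL cells, 43.4 and 35.6 CPM (log2 0.28, -0.89 to 1.40). Since the hairpin was in the tumour cells, this does not check the knockdown. In the list of PML nuclear body and SUMO genes 1 of 12 measured was at least 2-fold higher and 0 lower, with a median of 0.07. Sp100, another scaffold of these bodies, stood at 141 and 238 CPM (log2 -0.76, -1.31 to -0.23), and at -0.03 (-0.92 to 0.79) among members with Foxp3.

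In 14 of the 17 lists the median over members lay nearer to 0 than the median over other CD3 barcodes, whose mix of cells differed between the libraries. The IL-2 receptor and STAT5 list had a median of 0.01, MHC class I and peptide loading -0.01, TGF-beta 0.05, chemokine receptors and trafficking -0.10 and helper factors -0.23. The effector and tissue list had -0.05 over all members, 0.51 without shared barcodes and 0.58 among members with Foxp3, against 1.46 in other CD3 barcodes. Among its 21 measured genes 1 was at least 2-fold higher and 3 lower over all members (all genes: 4.69% and 5.54%). Among members with Foxp3 6 of 18 were higher and 2 lower (all genes: 8.12% and 8.87%). In the chemokine receptor and trafficking list 4 of 14 were higher among members with Foxp3 and 0 lower.

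**Figure D5:**
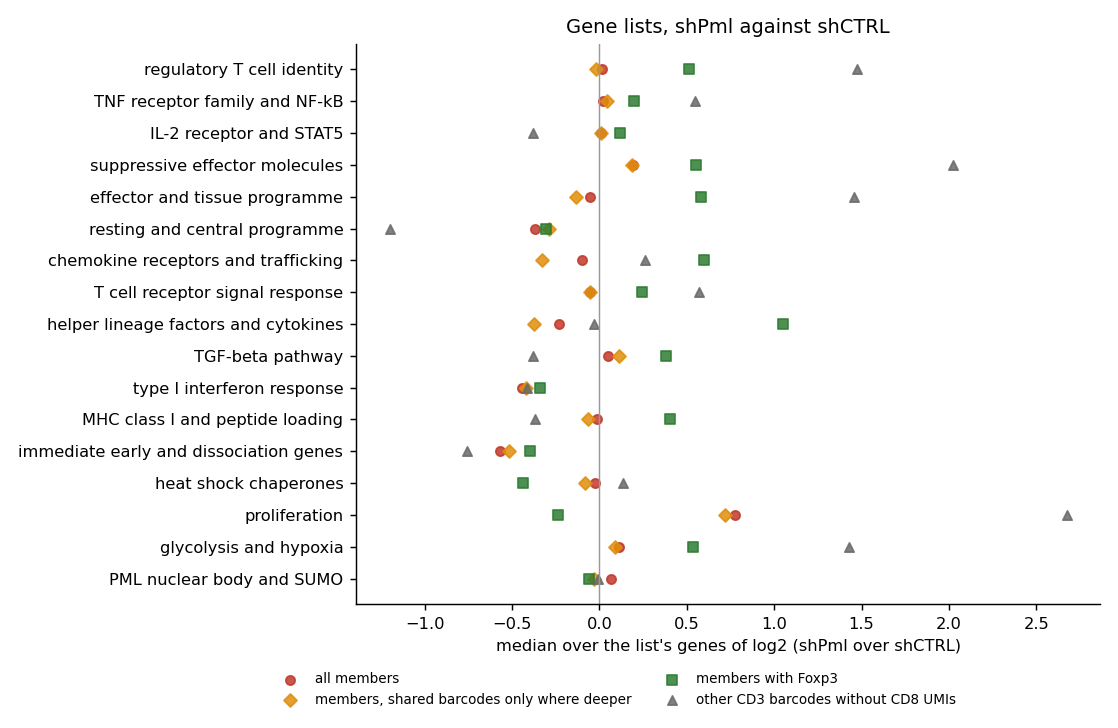
Median log2 ratio (shPml over shCTRL) over the measured genes of 17 lists, for all members, members with shared barcodes kept only where deeper, members with Foxp3, and other CD3 barcodes without CD8 UMIs. Proliferation has the highest median over all members (0.77) and immediate early genes the lowest (-0.57), and the other CD3 barcodes reach 2.67 and -0.76 in these lists.

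T cell receptor segments were too sparse to describe the repertoire. Beta variable segments gave 2 UMIs of 2 segments in shPml members and 18 UMIs of 9 segments in shCTRL members. Trbv13-1, which gave 8 of 9 such UMIs in the other CD3 barcodes of shPml, had 0 UMIs in shPml members and 2 in shCTRL members, and no difference was detectable at this depth.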

How the data were processed

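The authors deposited, for each library, a matrix of whole-number UMI counts for 32285 genes with no normalization. It was made with Cell Ranger 4.0.0 on mm10, per the submitters' processing notes, which also list R 4.3.3 and Seurat 4.4.0 without a role. No deposited barcode had under 500 UMIs. Barcodes were chosen by the gate given in the report. The members and gene lists were chosen with earlier results of these data known. Counts were summed over the members of a library and scaled per 1000000 UMIs (CPM). Ratios have exact conditional Poisson intervals, and shares Clopper-Pearson intervals (Python 3.11.15, scipy 1.17.1), checked on simulated data. A gene at 0 UMIs was set to 3 counts over the class in a ratio. Genes with at least 20 UMIs over the groups compared were measured, and at least 2-fold is a rule of size, not a test. With 1 library per group no p-value was computed. Named genes had at least 50 UMIs and the interval bound nearest 0 farthest from it, 12 per direction and up to 4 per list, beside markers and receptors named in every case. In the contrast with other CD3 barcodes rule genes were left out of this choice. Ribosomal, mitochondrial, receptor segment, haemoglobin, Xist and Y-linked genes and unnamed models were left out. Doublets were called with Scrublet (scanpy 1.11.5), which marked 5 shPml and 6 shCTRL barcodes, 1 of them a member, and they were kept. Positions are from GENCODE on mm10. TMM scaling used edgeR 4.0.16. Of the alternatives, 17 were planned and 3 were chosen after seeing the data. Thinning drew 500 UMIs per barcode, and no member was shallower. Thinning to 1000 UMIs left out the members with fewer, so that 62 shPml and 85 shCTRL members remained. Members without shared barcodes were drawn anew. The members held 276675 UMIs in shPml and 533313 in shCTRL, which sets the precision.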

Additional observations from a re-analysis of the deposited data

Results flagged for a closer look

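In 5 genes the members and the other CD3 barcodes differed between the libraries in opposite directions, each past 2-fold, and the differences between these ratios were not tested. Areg, the amphiregulin gene of tissue repair, was lower in shPml members (log2 -1.36), and 49 of its 99 shCTRL member UMIs lay in 1 cell. It was higher in shPml other CD3 barcodes (3.14, 1.22 to 5.62), from only 11 shPml and 3 shCTRL UMIs. Lag3 had -2.43 in members and 3.23 in other CD3 barcodes. In members it had 0.07 without shared barcodes and -2.60 with them kept only where deeper. Ifitm1 had -2.61 and 3.40, with 47 shCTRL member UMIs in 3 cells. Ifitm2 had -1.61 and 1.58, and -0.57 in members without shared barcodes. Tnfsf11, the gene of the cytokine RANKL, had -2.13 and 2.40, with 30 of its 76 shCTRL member UMIs in 1 cell.

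Barcodes outside the gate also met parts of its rule. Among CD3 barcodes with CD8 UMIs, 20.7% in shPml (148 of 714) and 13.8% in shCTRL (36 of 261) met the Foxp3 or 6-gene criterion, and Foxp3 itself was found in 2 and 4 of them. Of the barcodes over the mitochondrial limit that were CD3-positive and without CD8 UMIs, 21.1% in shPml (26 of 123) and 6.18% in shCTRL (38 of 615) met the same criterion. A Y-linked UMI was found in 10.5% of shPml members (8 of 76) and in 0 of 88 shCTRL members, which allows a share of members with such a UMI of up to 3.41% (3 counts of the total).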

How the results depend on the processing

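No paired analysis was possible because only 1 library stood in each group. The share of members among kept barcodes (ratio 0.421) was 0.230 with Foxp3 required, 0.232 with Cd4, 0.247 with Xist and 0.303 with shared barcodes only where deeper. Among CD3 barcodes without CD8 UMIs (0.842) it was 0.460, 0.463 and 0.494 in the first 3 settings. At a minimum of 1000 UMIs it was 1.21, with an interval that held 1 (0.855 to 1.69). Genes at least 2-fold higher and lower in shPml members (237 and 280) numbered 485 and 535 as means over cells, 48 and 63 with at least 50 UMIs, and 523 and 606 with at least 10. Without the cell holding most UMIs of each gene, 479 were lower. Against other CD3 barcodes, 300 genes higher in both libraries became 474 with Foxp3 required, 170 with TMM scaling, 138 with at least 50 UMIs and 459 with at least 10, and 199 lower became 121 without shared barcodes. Fewer genes are measured at a higher minimum; for the other settings the cause was not tested. Among named genes past 2-fold with an interval that left out 0, and with at least 20 UMIs under the setting, the sign turned in 7 values, of 1228 over all named genes. These were Hspa1a (0.45 with Foxp3 required), Plac8 and Xcl1 with Cd4 required (-2.10 and -1.38), Xcl1 with Xist required (-2.64), Areg at a mitochondrial limit of 5% (0.0923), and Csf2 as a mean over cells (0.0788) and without its top cell (2.53). Lag3 without shared barcodes (0.07) had too few UMIs to enter, and Cd4 without shared barcodes (0.12) and Ifi27l2a with Foxp3 required (0.09) were not past 2-fold at first. Of the rest, 1071 moved by less than the counting interval and 150 by more. Of 255 list medians 94 moved, and of 170 shares of cells with a gene 58. Depth limits scarce genes: the interval of Il10 ran from -3.16 to 1.36 and that of Pml from -0.89 to 1.40.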
